A study of Homo sapiens with 8 samples.

Results

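The genes described here are 42 genes of the integrated stress response and the unfolded protein response of the endoplasmic reticulum (ER). They were taken by gene symbol from 59050 gene rows, and all 42 symbols were found. The RNA sequencing libraries came from mouse xenografts of H2122, a human lung cancer cell line. One group came from parental cells with intact SMARCA4 (4 tumours) and the other from SMARCA4 knockout cells (4 tumours), and the host animals of both groups had received vehicle. SMARCA4 is the motor subunit of SWI/SNF complexes, which move nucleosomes. Whether the knockout cells were a single clone or a pool, and the strain and age of the hosts, are not given in the sources used here. Nothing in the labels ties each tumour to a separate animal, so the p-values measure the spread between these tumours.

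The integrated stress response starts when a kinase such as PERK, GCN2, PKR or HRI phosphorylates the translation factor eIF2alpha. General translation then falls while the messenger RNA of ATF4, a transcription factor, is translated better, so the ATF4 transcript level is a poor guide to its protein. ATF4 dimers switch on genes for amino-acid synthesis, amino-acid import, serine and one-carbon metabolism, and feedback. The unfolded protein response has PERK as one branch and adds the sensors IRE1, which splices XBP1 transcripts, and ATF6, which is cut to release a transcription factor; both raise ER chaperones. Gene counts show neither splicing nor cleavage.

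Matches to a pair of DNA elements named for these pathways are shown because genes with a match differed in direction or did not pass the test. The C/EBP-ATF response element was searched as TGATGNAA and the ER stress response element as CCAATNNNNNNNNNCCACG, each on both strands, in the 250 bases before each transcription start listed by RefSeq on GRCh38.p14. Promoters were listed for 36 of the 42 genes. The first element was found in 5 of these 36 genes, and in 3.14% of all 35116 promoters. The second was found in 2 of the 36, and in 0.07% of all promoters. The units differ: a gene counted when any of its listed promoters matched, while the percentages count each promoter. The gene counts therefore cannot be set directly against the percentages. Start sites differ between annotations. Of the 5 matches to the first element, 4 (ASNS, MTHFD1L, CEBPG and CHAC1) lie inside the span that GENCODE 29 gives the gene. The printed stretches of ASNS, MTHFD1L and CHAC1, flanks included, touch an exon annotated to that or another gene. A match describes letters only and is not evidence of binding. Capitals mark the element, and each sequence runs 5′ to 3′ on the strand of its gene.
ASNS, chr7:97872458-97872487, minus strand: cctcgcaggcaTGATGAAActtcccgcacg
MTHFD1L, chr6:150866346-150866375, plus strand: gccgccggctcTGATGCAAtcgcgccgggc
CEBPG, chr19:33374060-33374089, plus strand: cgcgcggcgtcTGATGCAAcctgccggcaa
CHAC1, chr15:40953251-40953280, plus strand, element reversed: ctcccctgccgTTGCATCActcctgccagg
HERPUD1, chr16:56931955-56931984, plus strand, element reversed: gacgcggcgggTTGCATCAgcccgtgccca
HSPA5, chr9:125241386-125241414, minus strand: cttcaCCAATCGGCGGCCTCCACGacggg
XBP1, chr22:28800598-28800626, minus strand: gctggCCAATCGCGGAGGGCCACGaccgt

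Libraries held 19785922 to 23191698 gene counts, and the 42 genes took 0.438% to 0.540% of them. SMARCA4 lay at 198 to 235 CPM in the parental and 22.3 to 31.1 CPM in the knockout tumours, with no overlap between the groups; CPM is the count per 1000000 of the TMM-scaled library size. Of 8 epithelial markers, all passed the count filter and their sum was 7963 to 9200 CPM in parental and 6789 to 8210 CPM in knockout tumours. Of the 8, edgeR called 3 lower at an adjusted p under 0.05 and none higher: KRT7 (log2 fold change -0.71), KRT19 (-1.01) and CLDN4 (-0.99). These were lower in every knockout tumour. So was EPCAM, at 447.1 to 563.7 CPM in parental and 432.6 to 445.6 CPM in knockout tumours, which was not called. What part this had in the results below was not tested. Among 5 lung lineage markers, NKX2-1 and SFTPC had no count in any library, and SFTPB was at 0.374 CPM or less. FOXA2 was at 3.23 to 6.15 CPM in parental and 0.747 to 1.63 CPM in knockout tumours. NAPSA was at 0.680 to 1.14 and 0.933 to 1.22 CPM. In this list 2 genes were tested, 1 was called lower and none higher. Markers of host cells were uneven. The sum of 8 fibroblast markers was 181 to 611 CPM in parental and 345 to 606 CPM in knockout tumours, most of it COL1A1, and 1 of the 5 tested was higher, LUM (0.374 ± 0.236 against 12.4 ± 2.497 CPM, SD, n = 4 each). The sum of 8 leukocyte markers was 69.3 and 58.7 CPM in parental replicates 2 and 3 and 7.53 to 29.98 CPM in the other 6 tumours. Muscle markers reached 42.0 CPM in parental replicate 2, against 2.73 to 17.8 CPM elsewhere, and 1 of the 2 tested was called lower. The sum of 8 endothelial markers was 7.51 to 18.4 CPM in parental and 9.11 to 15.5 CPM in knockout tumours. Of these, 2 were tested and 1 was called lower. In bulk tumours fewer cells of a type and less RNA per cell cannot be told apart.

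The stress genes did not move as a block. Of the 42, 40 passed the filter on low counts, and 16 of the 40 (40%) changed by edgeR's quasi-likelihood test at an adjusted p under 0.05, against 27.0% of all 16219 genes tested. Genes higher in knockout tumours numbered 6 (15%, against 13.0% of all genes) and those lower numbered 10 (25%, against 14.1%). Fold changes above and below 0 were 20 each, and the median log2 fold change was -0.0076, against 0.0035 over all genes tested. The 4 knockout values lay above all 4 parental values for 4 of the genes tested, and below them for 8, against 14.0% and 15.3% of all genes. The serine synthesis gene PHGDH, the secreted stress factor GDF15 and the ER stress factor XBP1 were among those that fell, and TRIB3, ASNS and CTH among those that rose. ASNS rested on few counts, which are uncertain as a measure of the gene. Without knockout replicate 3, 3 genes were higher instead of 6.

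**Figure D1:**
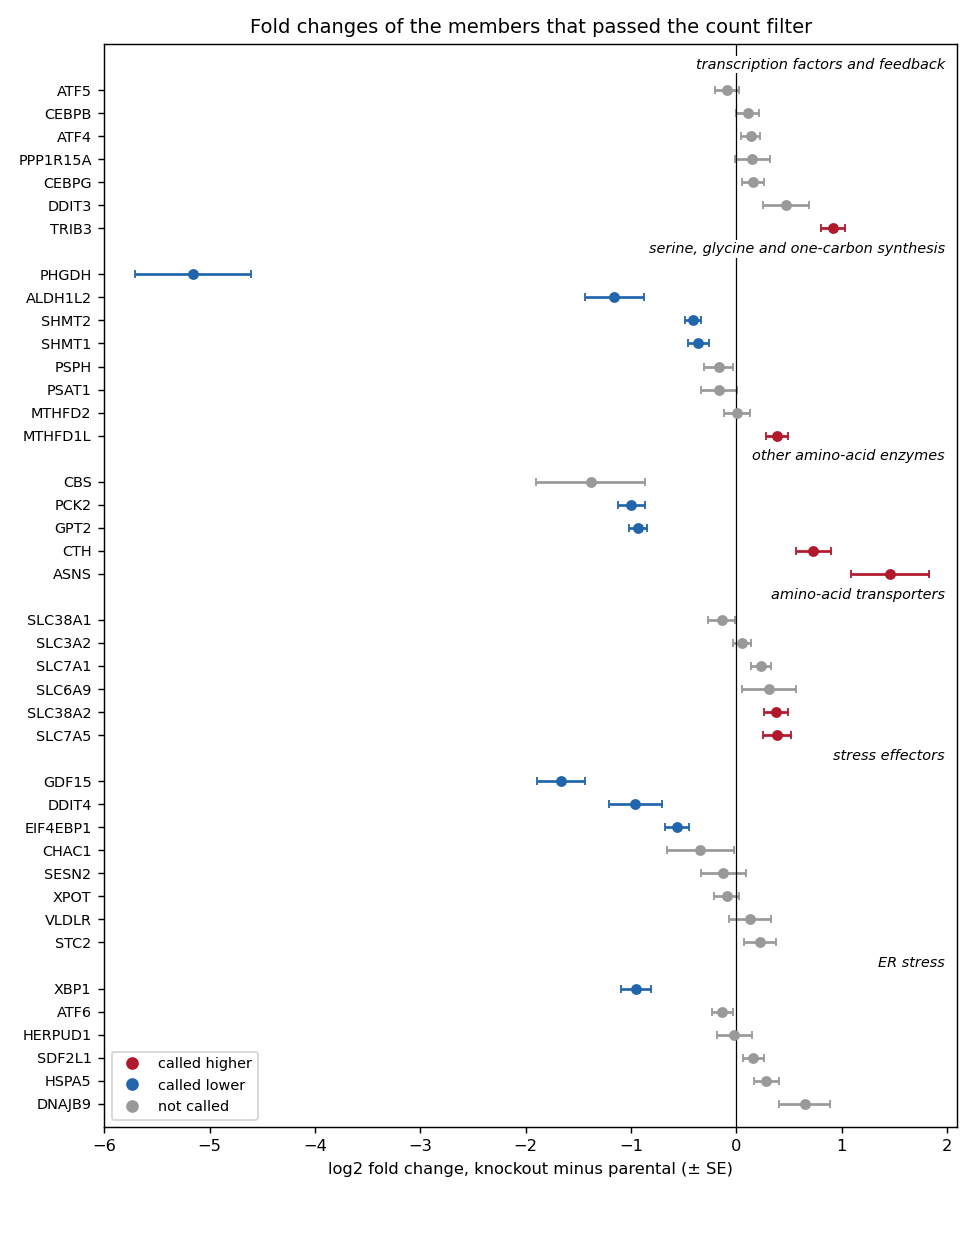
Log2 fold change of knockout against parental tumours for the 40 members that passed the count filter, with the SE from edgeR as bars, ordered within 6 roles; red and blue points passed an adjusted p of 0.05 and grey points did not. PHGDH at -5.16 lies far to the left of all the others, and called genes lie on both sides of 0 among the serine and one-carbon genes and the other amino-acid enzymes.

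None of the transcription factor genes at the head of the response passed the test. ATF4 itself (chromosome 22, 39519695 to 39522685, plus strand, GENCODE 29 on GRCh38, as for all gene positions here) was at 295, 264, 332 and 283 CPM in parental replicates 1 to 4 and at 324, 338, 310.4 and 318 CPM in knockout replicates 1 to 4. The groups overlapped, and the log2 fold change was 0.14 (adjusted p = 0.285 by edgeR, SE 0.0876). DDIT3 (chromosome 12, 57516588 to 57521737, minus strand), which encodes the stress factor CHOP, was at 5.59, 6.54, 6.21 and 6.04 CPM in parental tumours. In knockout tumours it was at 7.71, 12.9, 7.42 and 5.79 CPM. Knockout replicate 2 stood highest, knockout replicate 4 lay inside the parental range, and the log2 fold change of 0.47 (SE 0.2197) did not pass (adjusted p = 0.141). Without knockout replicate 2 it was 0.20 (0.433). Of the exon bases of DDIT3, 39.6% are shared with other genes, mostly MARS on the opposite strand, so part of its reads may have been set aside as ambiguous.

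TRIB3 (chromosome 20, 362835 to 397559, plus strand) encodes a pseudokinase induced by ATF4 and CHOP that feeds back on them. It was the 1 gene of the 7 tested in this group that changed (14.3% higher, near the 13.0% of all genes). It stood at 47.9, 52.9, 52.6 and 55.4 CPM in parental and at 95.3, 119.6, 98.4 and 81.8 CPM in knockout tumours. Every knockout tumour was above every parental tumour. Its level rose from a mean of 52.2 ± 3.13 to 98.8 ± 15.6 CPM (± SD, 4 tumours per group), or 0.92 on the log2 scale (adjusted p = 0.000133 by edgeR, SE 0.113). The other members gave log2 fold changes of -0.088 for ATF5, 0.11 for CEBPB, 0.16 for CEBPG and 0.15 for PPP1R15A, with adjusted p-values of 0.596, 0.5004, 0.293 and 0.547. CEBPB and CEBPG encode partners of ATF4 in its dimers, ATF5 encodes a related factor, and PPP1R15A encodes GADD34, which directs the phosphatase that resets eIF2alpha. Other genes share 23.7% of the exon bases of ATF5, mostly NUP62 on the opposite strand, and 11.8% of those of CEBPB. Part of the reads of ATF5 and CEBPB may therefore have been set aside as ambiguous. CEBPG carries the response element printed above, and its groups overlapped at 31.6 to 42.4 and 39.8 to 45.6 CPM. NUPR1, a stress-induced chromatin protein gene, was under the filter with 3, 4, 21 and 14 counts in parental and 1, 1, 1 and 5 in knockout tumours. The parental-to-knockout ratio of its pooled counts was 5.19 (95% interval 2.41 to 12.8, counting error only), but the groups overlapped (exact two-sided permutation p = 0.0857).

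Serine, glycine and one-carbon genes held the deepest fall. Of 8 members tested, 4 were lower (50%, against 14.1% of all genes), 1 was higher (12.5%, against 13.0%) and 3 did not pass, with a median log2 fold change of -0.26. PHGDH (chromosome 1, 119648411 to 119744226, plus strand), the first enzyme of serine synthesis from glycolysis, was at 8.49, 3.32, 14.2 and 18.4 CPM in parental tumours. It was at 0.467, 0.244, 0.233 and 0.2801 CPM in knockout tumours, from 10, 5, 5 and 6 counts. The groups were far apart although the parental tumours themselves spread 5.55-fold, with parental replicate 2 lowest and parental replicate 4 highest. The log2 fold change was -5.16 (adjusted p = 5.08e-05 by edgeR, SE 0.553), which is 35.6-fold lower, and the knockout mean was 2.76% of the parental mean.

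The next steps of the same route differed by much less. PSAT1, the aminotransferase that follows PHGDH, was at 20.1 to 37.3 CPM in parental and 21.2 to 27.4 CPM in knockout tumours (log2 fold change -0.16, adjusted p = 0.525). PSPH, the phosphatase that releases serine, was at 9.2 to 12.9 and 8.39 to 11.2 CPM (-0.17, adjusted p = 0.406). Neither passed the test, and in both the groups overlapped. The value of PSAT1 depended on parental replicate 4, its highest tumour, without which it was 0.013. SHMT2 (chromosome 12, 57229327 to 57234935, plus strand), the mitochondrial enzyme that splits serine into glycine and a one-carbon unit, was at 181, 155, 160.3 and 177 CPM in parental and 126, 124, 127 and 130.2 CPM in knockout tumours. Its groups did not overlap, and it fell by 0.41 on the log2 scale (adjusted p = 0.0027 by edgeR, SE 0.0794). Its cytosolic counterpart SHMT1 fell from 75.4 ± 4.75 to 58.8 ± 6.76 CPM (SD, n = 4 each; log2 fold change -0.36, adjusted p = 0.01802), a call lost without knockout replicate 1 or knockout replicate 2.

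Among the mitochondrial folate enzymes downstream, MTHFD1L rose and ALDH1L2 fell. MTHFD1L (chromosome 6, 150865549 to 151101887, plus strand), which releases formate, was at 68.6, 69.3, 53.4 and 66.1 CPM in parental and 81.7, 74.7, 93.99 and 85.8 CPM in knockout tumours. It rose by 0.39 on the log2 scale (adjusted p = 0.01895 by edgeR, SE 0.106) with no overlap; its RefSeq promoter holds the element printed above. That call was lost without knockout replicate 3 (adjusted p = 0.0650) and without parental replicates 2 and 3 (0.0551). MTHFD2, which acts just before it, was at 157 ± 28.8 and 158 ± 11.2 CPM (SD, n = 4 each; adjusted p = 0.991), and 33.2% of its exon bases are shared with genes on the opposite strand. ALDH1L2, which oxidises the folate-bound unit to carbon dioxide, fell from 4.002 ± 0.835 to 1.79 ± 0.738 CPM (log2 fold change -1.16, adjusted p = 0.0101). The groups overlapped for ALDH1L2 because knockout replicate 2, at 2.88 CPM, was above parental replicate 2, at 2.78 CPM.

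**Figure D2:**
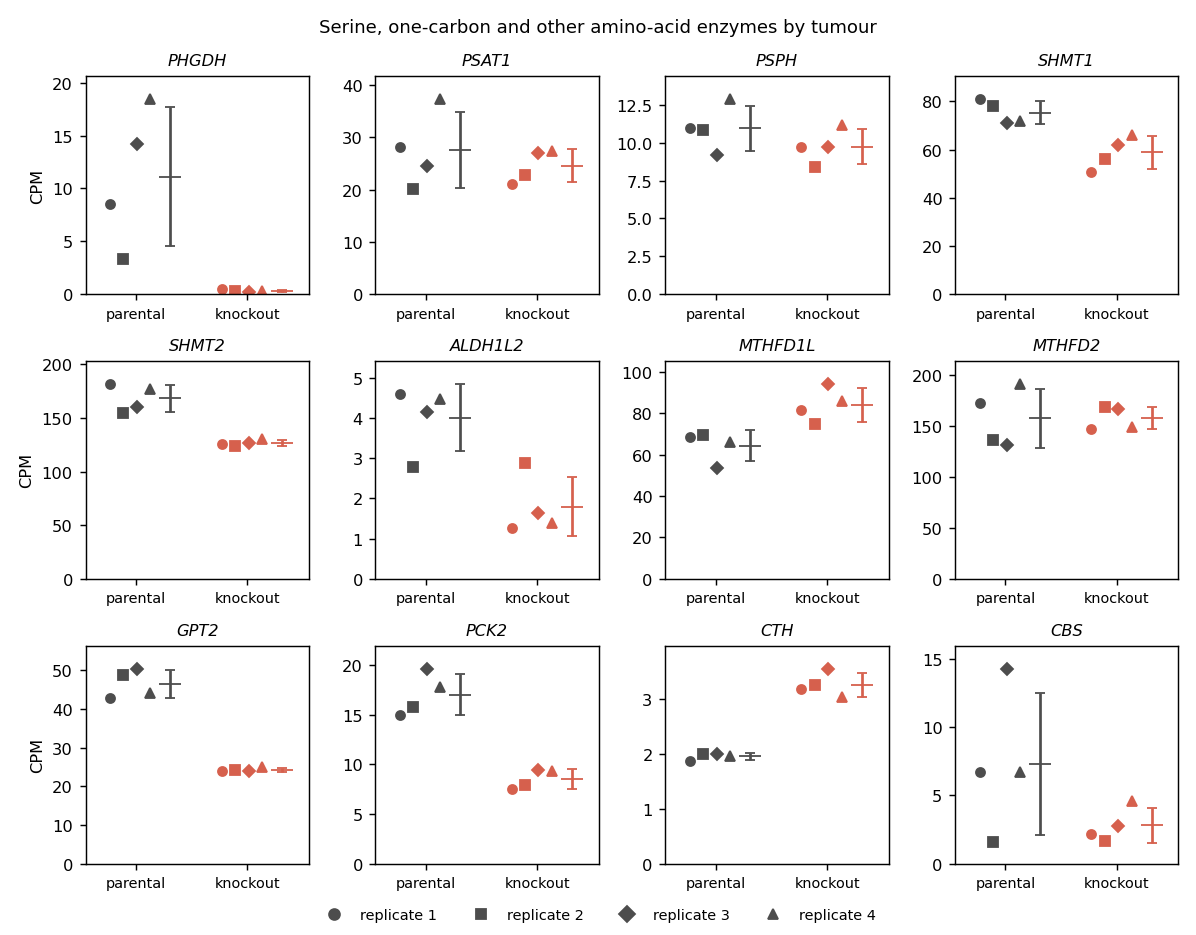
CPM of 12 enzyme genes in each tumour, with marker shape for the replicate number and the bar for mean ± SD of 4 tumours; axes start at 0 and differ between panels. PHGDH falls to under 0.5 CPM in all 4 knockout tumours, GPT2 and PCK2 separate the groups with little spread, and PSAT1, PSPH and MTHFD2 overlap.

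Among the 5 other amino-acid enzymes, 2 rose and 2 fell (40% each, against 13.0% and 14.1% of all genes), and 1 did not pass. GPT2 (chromosome 16, 46884378 to 46931297, plus strand), the mitochondrial alanine transaminase, was at 42.9, 48.7, 50.3 and 44.1 CPM in parental and 23.9, 24.2, 24.1 and 25.02 CPM in knockout tumours. The knockout tumours lay within 23.9 to 25.02 CPM, and the fall of 0.94 on the log2 scale (adjusted p = 1.71e-05 by edgeR, SE 0.0852) left 52.3% of the parental mean. PCK2 (chromosome 14, 24094053 to 24110598, plus strand), the mitochondrial enzyme that makes phosphoenolpyruvate, was at 14.9, 15.8, 19.6 and 17.8 CPM in parental and 7.48, 7.898, 9.47 and 9.29 CPM in knockout tumours. It too was lower in every knockout tumour (log2 fold change -0.996, SE 0.131, adjusted p = 0.000213).

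CTH, the gamma-lyase that makes cysteine from cystathionine, rose from a mean of 1.96 ± 0.0668 to 3.26 ± 0.216 CPM (± SD, 4 tumours per group), or 0.73 on the log2 scale (adjusted p = 0.00719 by edgeR, SE 0.166), with no overlap. CBS, the enzyme that precedes CTH in the same route, was at 6.73, 1.56, 14.2 and 6.72 CPM in parental and 2.196, 1.66, 2.8 and 4.57 CPM in knockout tumours. Its parental values spread 9.12-fold, and the log2 fold change of -1.38 (SE 0.518) did not pass (adjusted p = 0.0705). It was called without parental replicate 2 (-1.72, adjusted p = 0.00419) and with no filter on low counts (-1.41, 0.00616), while without parental replicate 3 the value was -0.84 (0.2245). CBS has a near-identical copy, CBSL, which held 1 count over all libraries, so reads that fit both may be missing from CBS.

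ASNS (chromosome 7, 97852118 to 97872542, minus strand), asparagine synthetase and a classical ATF4 target, was at 0.259, 0.146, 0.536 and 0.298 CPM in parental and 0.981, 0.926, 0.9801 and 0.607 CPM in knockout tumours, from 5, 3, 12 and 7 and 21, 19, 21 and 13 counts. Every knockout value was above every parental value, and the log2 fold change was 1.46 (adjusted p = 0.0127 by edgeR, SE 0.3696). These counts are uncertain as a measure of the gene. A second gene, AC079781.5, shares 1985 exon bases with it on the same strand (44.6% of its exon bases), and reads there cannot be given to ASNS alone. AC079781.5 itself had 231 counts over the 8 tumours and a log2 fold change of 0.30 (adjusted p = 0.543).

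Changes among the amino-acid transporters that passed the count filter were small. Of 7 members, 6 were tested, 2 were higher (33.3%, against 13.0% of all genes), none was lower and the median log2 fold change was 0.27. SLC7A5, the leucine importer LAT1, was at 466, 414, 473 and 582 CPM in parental and 649.5, 513, 738 and 629 CPM in knockout tumours. It rose by 0.39 on the log2 scale (adjusted p = 0.0471 by edgeR, SE 0.1298), but parental replicate 4 lay above knockout replicate 2. Leaving out any 1 tumour other than parental replicate 4 or knockout replicate 2 ended the call, with adjusted p up to 0.139, as did 3 other ways of scaling the libraries (0.0522 to 0.0596). SLC3A2, the chain that pairs with SLC7A5 at the membrane, was at 285 to 332 and 290.2 to 340.2 CPM (0.054, adjusted p = 0.70).

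SLC38A2, the glutamine and alanine importer SNAT2, was at 174, 150.4, 150.2 and 179 CPM in parental and 230.4, 228, 223 and 168 CPM in knockout tumours. It rose by 0.38 (adjusted p = 0.0308, SE 0.114), with knockout replicate 4 inside the parental range. That call was lost without any 1 tumour except parental replicate 4 or knockout replicate 4 (adjusted p up to 0.0893). Neither of these transporter calls held without parental replicates 2 and 3 (adjusted p = 0.2095 and 0.176). SLC38A1, the related transporter SNAT1, had a log2 fold change of -0.14 (adjusted p = 0.469). The arginine importer gene SLC7A1 (0.23, adjusted p = 0.0959) and the glycine transporter gene SLC6A9 (0.32, adjusted p = 0.3999) did not pass. SLC7A1 was called without knockout replicate 4 (adjusted p = 0.0255). SLC6A9 was at 4.66 to 11.97 CPM in parental tumours and within 9.71 to 10.3 CPM in knockout tumours. SLC43A1, a further carrier of branched amino acids, was under the filter with 12, 16, 8 and 5 counts in parental and 3, 4, 4 and 1 in knockout tumours. All its knockout values were below its parental values in CPM (p = 0.0286 by an exact two-sided permutation test, the lowest value that 4 against 4 can give), with a pooled ratio of 3.38 (95% interval 1.74 to 7.06).

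Of the 8 effectors that act downstream, 3 fell (37.5%, against 14.1% of all genes), none rose and 5 did not pass, with a median log2 fold change of -0.23. GDF15 (chromosome 19, 18374731 to 18389176, plus strand), a secreted factor that acts on appetite through a brainstem receptor, was at 29.1, 42.1, 61.9 and 66.4 CPM in parental and 15.1, 19.01, 14.1 and 14.8 CPM in knockout tumours. Parental replicate 1 was the lowest of its group and still above every knockout tumour. GDF15 fell from a mean of 49.9 ± 17.4 to 15.8 ± 2.21 CPM (± SD, 4 tumours per group), or -1.66 on the log2 scale (adjusted p = 0.0003001 by edgeR, SE 0.2295). EIF4EBP1 (chromosome 8, 38030341 to 38060365, plus strand), the translation repressor 4E-BP1, was at 42.9, 40.2, 39.4 and 52.5 CPM in parental and 27.9, 26.9, 30.1 and 33.3 CPM in knockout tumours. It fell by 0.57 on the log2 scale (adjusted p = 0.003402, SE 0.114) with no overlap.

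DDIT4, or REDD1, an inhibitor of mTORC1 that also responds to hypoxia, was at 581, 1159, 954 and 512 CPM in parental and 513, 469.6, 357 and 312 CPM in knockout tumours. Parental replicates 2 and 3 were far above the rest, and parental replicate 4 fell just below knockout replicate 1. DDIT4 was lower in knockout tumours by the test (log2 fold change -0.96, SE 0.251, edgeR adjusted p = 0.0154). The same parental replicates had the highest sums of the 8 leukocyte markers (69.3 and 58.7 CPM), of which 7 passed the filter, none changed and none was at 0 in all tumours; their part in the DDIT4 result was not tested. Without these 2 tumours the log2 fold change was -0.41 (adjusted p = 0.1103). An antisense gene, DDIT4-AS1, covers 41.2% of its exon bases, and had a log2 fold change of -0.92 (adjusted p = 0.0295).

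The other 5 effectors did not pass the test. Log2 fold changes were -0.12 for SESN2, the leucine sensor sestrin 2, -0.34 for CHAC1, which breaks down glutathione, 0.23 for STC2, a secreted glycoprotein, 0.13 for VLDLR, a lipoprotein receptor, and -0.090 for XPOT, the export factor for tRNA. Adjusted p-values by edgeR were 0.714, 0.471, 0.314, 0.685 and 0.618 in that order. CHAC1, whose promoter holds the element printed above, was at 1.904 to 3.305 CPM in parental and 1.26 to 3.32 CPM in knockout tumours. VLDLR was highest in parental replicate 2 (48.9 CPM), and without parental replicates 2 and 3 it was called higher (0.55, adjusted p = 0.00755). STC2 was called without knockout replicate 4, its lowest tumour (0.37, adjusted p = 0.0349), and was 0.10 without knockout replicate 1.

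Among the 6 ER stress members XBP1 fell, and none of the chaperone genes among these members passed the test. XBP1 (chromosome 22, 28794555 to 28800597, minus strand), the transcription factor made active when IRE1 splices its transcript, was at 357, 346, 535 and 436 CPM in parental and 193, 249, 212 and 213 CPM in knockout tumours. The highest knockout tumour lay below the lowest parental tumour. XBP1 fell from a mean of 419 ± 87.7 to 217 ± 23.7 CPM (± SD, 4 tumours per group), or -0.95 on the log2 scale (adjusted p = 0.000509 by edgeR, SE 0.142). It was the 1 gene of the 6 to change (16.7% lower, near the 14.1% of all genes). HSPA5 (chromosome 9, 125234853 to 125241330, minus strand), which encodes the main ER chaperone BiP, was at 575, 746, 638 and 657 CPM in parental and 806, 948, 766 and 665 CPM in knockout tumours. Its promoter carries the same ER stress element as that of XBP1, printed above. HSPA5 had a log2 fold change of 0.28 (SE 0.119) and did not pass (adjusted p = 0.104); knockout replicate 4 lay inside the parental range, and without that tumour it was called (0.36, adjusted p = 0.0427).

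DNAJB9, a co-chaperone of BiP, was at 17.1, 25.00, 21.3 and 16.4 CPM in parental and 31.6, 46.7, 28.8 and 18.02 CPM in knockout tumours. The log2 fold change was 0.65 (adjusted p = 0.0705 by edgeR, SE 0.243), and it did not pass. The call turned on single tumours: it passed without knockout replicate 4 (adjusted p = 0.0111) or parental replicate 2 (0.0431), and without knockout replicate 2 the value was 0.39 (0.217). HERPUD1, a part of ER-associated degradation, had a log2 fold change of -0.018 and SDF2L1, a chaperone cofactor, one of 0.16 (adjusted p = 0.951 and 0.273). ATF6, the gene of the cleaved sensor, was at 92.7 to 116 and 80.3 to 99.2 CPM (-0.13, adjusted p = 0.352). Markers of plasma cells, which make much XBP1, were near 0 but for SDC1. JCHAIN, MZB1, IGKC, TNFRSF17 and IGHG1 each lay between 0 and 2.002 CPM in all tumours, while SDC1, which epithelium also makes, was at 340.3 to 410.2 CPM in parental and 269 to 338 CPM in knockout tumours. SDC1 was called lower, like XBP1 (log2 fold change -0.32, adjusted p = 0.0317), and its part in the XBP1 result was not tested.

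**Figure D3:**
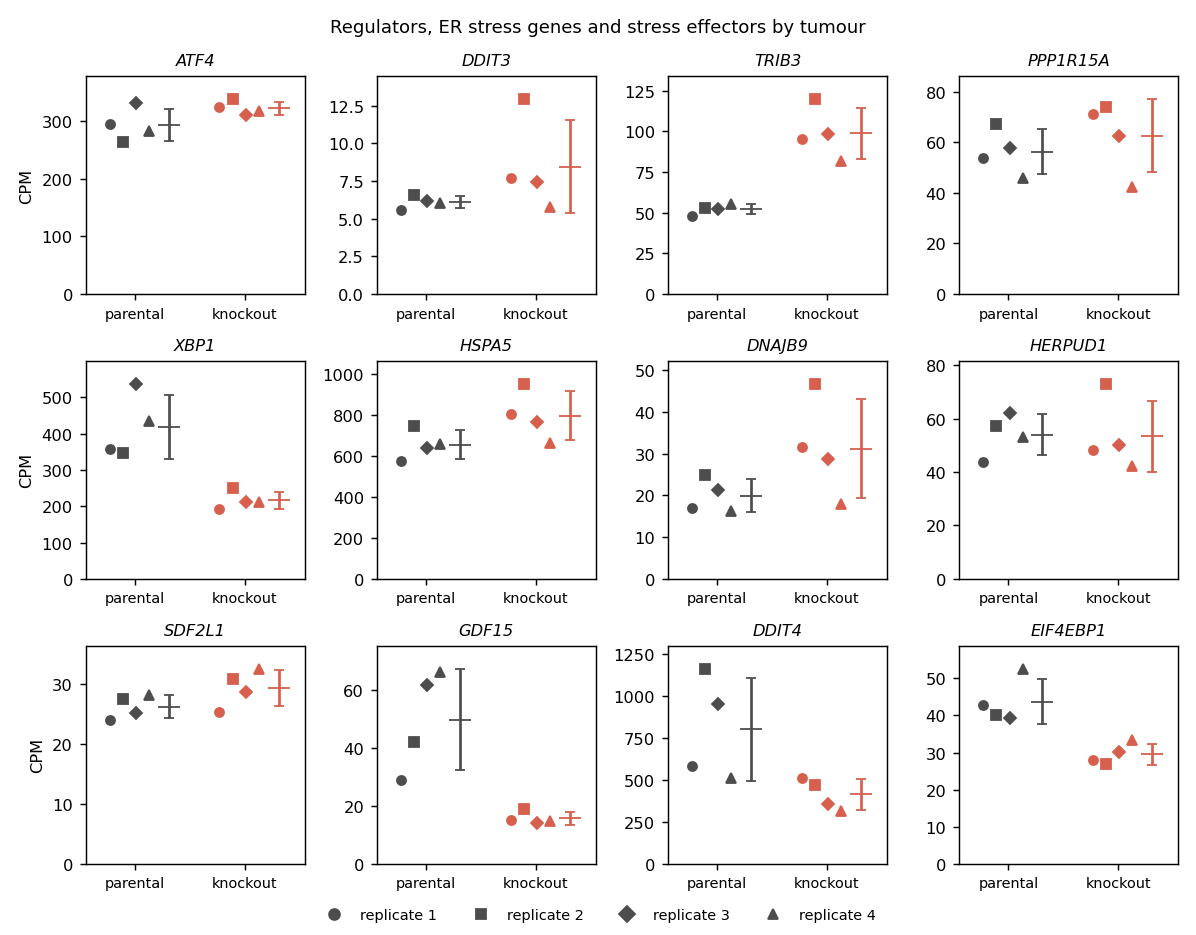
CPM of 12 regulators, ER stress genes and effectors in each tumour, with marker shape for the replicate number and the bar for mean ± SD of 4 tumours; axes start at 0 and differ between panels. TRIB3 lies higher and XBP1, GDF15 and EIF4EBP1 lie lower in all knockout tumours, and ATF4 overlaps. DDIT3, TRIB3, PPP1R15A, HSPA5, DNAJB9 and HERPUD1 have their highest value in knockout replicate 2 and their lowest knockout value in knockout replicate 4.

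The genes also varied among tumours of the same group. Knockout replicate 2 was the highest knockout tumour for 4 of the 6 ER stress genes and for 15 of all 40 tested (37.5%, against 23.3% of all genes). Knockout replicate 4 was the lowest knockout tumour for 18 of the 40 (45%, against 32.7% of all genes). In the parental group, replicate 4 was the highest for 15 of the 40 (37.5%, against 29.3%) and for 4 of the 8 serine and one-carbon genes, while replicate 2 was the lowest for 15 (37.5%, against 26.7%). The highest tumour stood 1.35 times above the lowest at the median over the 40 genes in the parental group and 1.32 times in the knockout group, against 1.40 and 1.30 times over all genes. CBS, PHGDH, ASNS and SLC6A9 spread most among parental tumours, by 9.12, 5.55, 3.66 and 2.57 times, and CBS, CHAC1, DNAJB9 and ALDH1L2 among knockout tumours, by 2.76, 2.63, 2.59 and 2.28 times.

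Other genes of the same pathways were read from lists. A list of the kinases that start the response, eIF2, its exchange factor eIF2B and related genes such as GCN1 and PPP1R15B held 19 genes. Of these, 1 was lower (5.26%, against 14.1% of all genes) and none higher, with a median log2 fold change of -0.060. That gene was EIF2B5, the catalytic subunit of eIF2B, which fell by 0.37 on the log2 scale (adjusted p = 0.0176 by edgeR, SE 0.0986), a call lost without knockout replicate 2 or 3. Cytosolic aminoacyl-tRNA synthetases, many of them ATF4 targets, had 3 of 20 genes lower (15%, near the 14.1% of all genes), none higher and a median of -0.14. VARS (-0.32, adjusted p = 0.01198) and SARS (-0.27, adjusted p = 0.0165) were 2 of them, and the call of SARS was lost without knockout replicate 3 (0.0523). No gene of the 10 tested mitochondrial stress genes changed by edgeR, against 27.0% of all genes. Of the 10, 1 had an unadjusted p under 0.05, against 6170 of all 16219 genes.

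Of 24 folate and one-carbon genes outside the members, 4 were higher and 4 lower, 16.7% each way and near the 13.0% and 14.1% of all genes, with a median of 0.087. GLDC, the decarboxylase of glycine cleavage, was at 0.207, 0.244, 0.179 and 0.255 CPM in parental and 2.01, 0.926, 2.61 and 1.54 CPM in knockout tumours. It rose by 2.97 on the log2 scale with no overlap (adjusted p = 0.000175 by edgeR, SE 0.379). GLDC passed the count filter through its knockout tumours alone, and its parental values are near the floor, so the size of the rise is uncertain. It was not tested under the filter of 1 CPM in a whole group. ALDH1L1, the cytosolic relative of ALDH1L2, fell from 21.1 ± 3.81 to 9.06 ± 0.883 CPM (SD, n = 4 each; -1.22, adjusted p = 9.84e-05), with no overlap. Both genes of that pair were lower in knockout tumours. Of 17 further amino-acid transporters tested, 4 were higher (23.5%) and 2 lower (11.8%), with a median of -0.022. SLC36A4 rose from 33.05 ± 1.88 to 49.1 ± 4.41 CPM (0.57, adjusted p = 0.000825), and SLC6A15 fell from 18.7 ± 4.41 to 11.6 ± 1.22 CPM (-0.68, adjusted p = 0.0103).

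Among 38 other ER chaperone and unfolded protein response genes, 4 were higher (10.5%) and 3 lower (7.89%), below the 13.0% and 14.1% of all genes, and the median was -0.026. CREB3L1, an ER-bound transcription factor of the same kind as ATF6, was at 92.5, 89.7, 138 and 97.5 CPM in parental and 6.17, 14.6, 8.35 and 10.4 CPM in knockout tumours. It fell by 3.40 on the log2 scale (adjusted p = 3.32e-06 by edgeR, SE 0.241). Also lower, with no overlap, were the chaperone genes CALR (-0.30, adjusted p = 0.0114 by edgeR) and DNAJC10 (-0.41, 0.0159). SEC61B (0.33, 0.0212), ERO1A (0.64, 0.0235) and ERN1, the gene of IRE1 (0.67, 0.0399), were called higher, each with overlapping groups. ERO1B, an ER oxidase, rose from 4.18 ± 0.436 to 8.02 ± 2.62 CPM (SD, n = 4 each; 0.94, adjusted p = 0.00967).

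**Figure D4:**
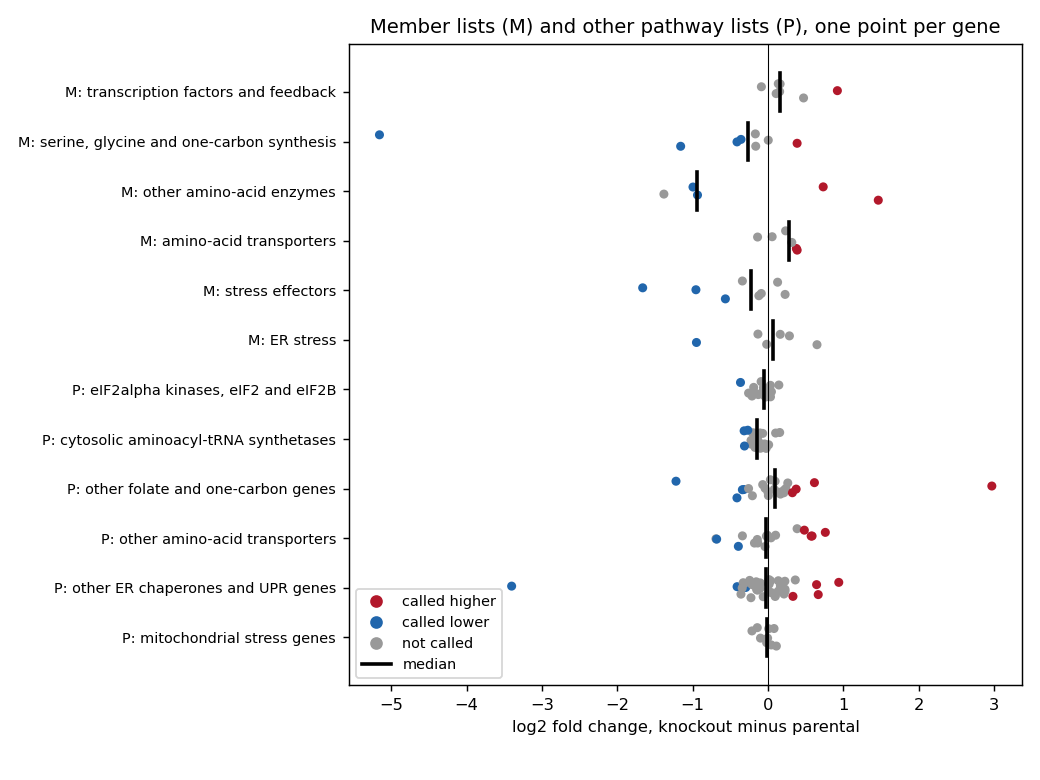
Log2 fold change of each tested gene in the 6 lists of members and the 6 lists of other pathway genes, coloured by its call, with the median of each list as a black bar. The medians run from -0.94 for the other amino-acid enzymes to 0.27 for the transporters, and CREB3L1 and GLDC lie far from the rest of their lists.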

How the data were processed

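RNA sequencing counts of 8 H2122 xenografts were used, 4 per group, grouped and numbered by their titles. Each deposited file lists whole read counts by gene symbol for 1 tumour; the submitters' processing notes name TopHat2 2.1.1, HTSeq 0.11.0 and hg38. The annotation, the strand setting and any removal of mouse reads are not given in the sources used here, so host reads may be counted as human and overlapping genes may lose reads. The 5 summary lines per file were left out, and 79.1% to 85.2% of reads had been assigned to genes.

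Counts were fitted with edgeR 4.0.16 in R 4.3.3: filterByExpr (minimum count 10, minimum total 15), TMM scaling, and the quasi-likelihood test with no covariate, adjusted by the Benjamini-Hochberg method over all 16219 genes. The SE is the log2 fold change over the square root of F. The scripts were tested on simulated data. There DESeq2 made more false calls than edgeR and more than its threshold allows, so a call by DESeq2 alone carries less weight. Intervals cover counting error only. DESeq2 1.42.0, limma-voom (limma 3.58.1), 3 scalings, 2 filters, library sizes without the 10 most abundant genes, a replicate block and leaving out each tumour were the alternatives.

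The members and lists were chosen with earlier results of these data known. All members were named. Values in every tumour were due for ATF4, DDIT3, HSPA5, XBP1, genes under the filter and, per role, up to 3 changed genes with the largest fold change and no overlap; in each pathway list, the 2 changed genes with the smallest p were named. Other per-tumour values, and the other changed genes of the ER chaperone list, were added after they were seen.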

Additional observations from a re-analysis of the deposited data

Results flagged for a closer look

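In each group the highest or lowest tumour was compared with the other 3 for SMARCA4 and the 42 genes, 86 sets of 4 values, and 4 sets stood apart, where chance gives about 5%. All 4 were in the knockout group. NUPR1 in knockout replicate 4 had 0.233 CPM, while the other 3 had 0.0467 to 0.0488 CPM, which is 5 counts against 1 count each. ASNS in knockout replicate 4 had 0.607 CPM, while the other 3 had 0.926 to 0.981 CPM. SLC38A2 in knockout replicate 4 had 168 CPM, while the other 3 had 223 to 230.4 CPM. SLC6A9 in knockout replicate 1 had 10.3 CPM, while the other 3 had 9.71 to 9.76 CPM.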

How the results depend on the processing

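Of the 16 called genes, 12 kept their call in all 17 alternative settings that tested them (ASNS was not tested under the filter of 1 CPM in a whole group), and 11 also without parental replicates 2 and 3, an alternative chosen after the data were seen; the calls lost were those of SHMT1, MTHFD1L, SLC7A5, SLC38A2 and, in the added alternative, DDIT4. Of 24 genes not called, 5 were called in at least 1 of the 17 settings (CBS, SLC7A1, STC2, HSPA5 and DNAJB9), and VLDLR without parental replicates 2 and 3. DNAJB9 also passed with DESeq2 (adjusted p = 0.0349) and with no filter (0.0156). When 1 tumour was left out, 3 to 9 genes were higher and 9 to 11 lower, and 3501 to 4721 of all genes changed. Signs turned only in genes that were not called. For MTHFD2 the log2 fold change was -0.0048 with DESeq2, -0.0049 with RLE scaling, -0.015 with total counts, -0.020 with no filter and -0.0077 without the 10 most abundant genes in the library sizes. It was -0.21 without parental replicates 2 and 3, and -0.079 to 0.10 when 1 tumour was left out. HERPUD1 was at 0.015 with upper-quartile scaling, at 0.13 without parental replicates 2 and 3, and at -0.20 to 0.081 when 1 tumour was left out. When 1 tumour was left out, PSAT1 ran from -0.29 to 0.013, VLDLR from -0.025 to 0.38 and XPOT from -0.17 to 0.021. The causes were not tested. Same-numbered tumours of the 2 groups share only a number: their deviations from the group means correlated at -0.19 to 0.086. With the replicate block 5 genes were higher and 10 lower, and 3871 of all genes changed. With that block 14 of the 16 calls held, those of MTHFD1L (adjusted p = 0.0533) and SLC38A2 (0.0677) were lost, and DNAJB9 was called (0.0214). At these depths NUPR1, SLC43A1, ASNS and, outside the members, GLDC rest on few counts.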
